A study of Homo sapiens with 3 samples.

Results

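Protein-coding genes were compared between 2 RNA libraries of RWPE1 cells, one from cells in which the OLFM4 gene had been knocked out and one from OLFM4-wild cells. A coding gene was included when its mean level over the 3 libraries of the count table was at least 10 CPM, the count scaled to the size of its library, a rule that does not use the difference between the knockout and the wild library. It was met by 9662 of the 19629 coding genes among the 58037 genes listed. For each of the 9662 genes the log2 ratio of the knockout to the wild library was taken after scaling with TMM factors, which adjust library sizes to the bulk of the genes. A log2 ratio above 1, a difference of more than 2-fold, was found for 391 genes (4.05%) and one below -1 for 280 genes (2.9%), and these genes were then described by function.

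RWPE1 is an immortalized, non-tumorigenic line of human prostate epithelium. The study made GFP reporter lines of RWPE1 cells with CRISPR/Cas9 plasmids, which it calls clones, and the knockout library is of such cells. The other libraries are labelled OLFM4-wild and OLFM4-active. The study's methods name activation plasmids directed to OLFM4 for the wild reporter cells and double nickase plasmids for the knockout, followed by selection in puromycin and a sort for GFP. Whether the cells of the wild library and of the library labelled OLFM4-active were such transfected and selected reporter cells could not be worked out from the sources used here, so transfection and selection cannot be told apart from the loss of OLFM4 in the ratios. Total RNA depleted of ribosomal RNA was sequenced from 1 library per line, and no time or dose distinguishes the lines. With 1 library per line no spread between cultures could be estimated. The 95% intervals given below after each log2 ratio cover counting error only, and each ratio compares a pair of libraries, not conditions.

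The libraries held 16309906 counts (wild), 58837147 counts (knockout) and 23224216 counts (labelled OLFM4-active). OLFM4 itself had 214 counts or 11.8 CPM in the wild library, 131 counts or 2.55 CPM in the knockout library and 16 counts or 0.670 CPM in the library labelled OLFM4-active. The log2 ratio of the knockout to the wild library was -2.20 (-2.53 to -1.89). Against its label, OLFM4 was least in the library labelled OLFM4-active. All 10 basal epithelial markers were detected in each library, and their summed level was 21977, 45572 and 26369 CPM. Of 11 luminal markers, summed at 469, 430 and 309 CPM, nearly all counts came from KRT8 and KRT18, while KLK2 was at 0 throughout. The summed leukocyte markers were at 34.0, 26.2 and 20.97 CPM, with CD3E and LYZ at 0, and the summed fibroblast markers at 34.5, 32.0 and 23.4 CPM, with COL3A1 and LUM at 0. In bulk RNA, fewer cells of a kind and less RNA per cell cannot be told apart. In what follows, 3 levels of a gene are in the order wild, knockout, labelled OLFM4-active, and all are TMM-scaled CPM. The log2 ratio of the knockout to the wild library follows in brackets, with its interval after a comma.

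The basal layer of a stratified or pseudostratified epithelium is held together by keratins 5 and 14 and anchored by hemidesmosomes, and its cells leave the cycle as they differentiate. In keratinocytes and in squamous epithelium this ends in a cornified envelope, built from filaggrin, small proline-rich proteins and S100 proteins under the control of proteases and their inhibitors. Growing cells instead build ribosomes, which requires RNA polymerase I, many assembly factors and large amounts of ribosomal protein. The type I interferon response is a separate program, in which STAT and IRF factors bind the interferon-stimulated response element (ISRE) in the promoters of antiviral genes.

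Promoter sequence was compared for the genes that lay together beyond 1, since several of these groups share known elements. Sequences from 250 bases before to 50 after the gene start were found in RefSeq (GRCh38.p14) for 306 of the 391 genes above 1 and for 226 of the 280 genes below -1. The core of the ISRE, GAAA and GAAA with any 2 bases between them, were searched on both strands and occurred in 3.18% of 15345 coding promoters of this length. They occurred in 16 of 226 promoters of genes below -1 (7.08%) in 8 of 306 promoters of genes above 1 (2.61%) and in 2.65% of those between. Of 13 interferon response genes below -1 with a promoter sequence, 8 held the core, and it was in 24 of 37 promoters of the whole list (64.9%), so its share was not higher among the genes beyond the threshold. The 150 bases before the start are shown for 3 of them that held 2 copies there, with the ISRE core in capitals on either strand. IFI6 is on the minus strand at chr1:27672193-27672342, IFIT1 on the plus strand at chr10:89392473-89392622 and OAS3 on the plus strand at chr12:112938324-112938473.
IFI6: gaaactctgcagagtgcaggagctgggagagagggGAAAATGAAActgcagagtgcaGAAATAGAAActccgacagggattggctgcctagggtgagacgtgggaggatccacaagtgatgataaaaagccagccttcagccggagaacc
IFIT1: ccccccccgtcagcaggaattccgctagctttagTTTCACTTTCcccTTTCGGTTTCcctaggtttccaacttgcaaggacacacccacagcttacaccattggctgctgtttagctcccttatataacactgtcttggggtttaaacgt
OAS3: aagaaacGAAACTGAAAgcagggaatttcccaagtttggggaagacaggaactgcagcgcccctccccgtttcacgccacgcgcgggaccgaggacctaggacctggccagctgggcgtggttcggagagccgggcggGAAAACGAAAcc

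Metallothionein genes, several of which were above 1, are known to be induced by zinc through the metal response element, searched on both strands as TGCNCNC. These 7 letters occurred in 60.5% of all coding promoters, in 63.4% of those of genes between -1 and 1 and in 66.0% of those of genes above 1, so the presence of 1 copy sets no promoter apart. Within the 150 bases before the start, MT2A on the plus strand at chr16:56608434-56608583 and MT1X on the plus strand at chr16:56682320-56682469 held 4 copies each, shown in capitals. They were picked for having the most copies among the metallothionein and metal transport genes above 1. The share of all promoters with 4 copies was not counted, so this number does not set them apart either.
MT2A: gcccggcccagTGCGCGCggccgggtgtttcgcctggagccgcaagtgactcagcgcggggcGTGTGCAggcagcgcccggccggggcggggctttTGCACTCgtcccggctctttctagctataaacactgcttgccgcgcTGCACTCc
MT1X: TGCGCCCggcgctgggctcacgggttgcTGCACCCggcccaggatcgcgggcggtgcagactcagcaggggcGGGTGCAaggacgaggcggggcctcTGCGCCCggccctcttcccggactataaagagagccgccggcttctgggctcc

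The E-box CACGTG, bound by MYC with MAX and by other helix-loop-helix factors, occurred in 8.89% of all coding promoters, in 10.7% of those of genes between -1 and 1, in 13.7% of those of genes above 1 and in 11.5% of those of genes below -1. It was present in 21 of 61 promoters of ribosome biogenesis genes (34.4%) and in 6 of the 19 promoters of those above 1 (31.6%), so within this group its share was not higher among the genes beyond the threshold. The element lies close to the start in these genes, and 26 bases around it are shown for the 3 of those above 1 with the highest ratios outside chromosomes 8 and 18, RRP9 on the minus strand at chr3:51941894-51941919, MRTO4 on the plus strand at chr1:19251809-19251834 and NOL6 on the minus strand at chr9:33473896-33473921, with the E-box in capitals.
RRP9: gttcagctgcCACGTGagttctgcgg
MRTO4: tcttccgccgCACGTGgattcagcgc
NOL6: catttccgccCACGTGggaagctatg

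The AP-1 site TGANTCA, searched on both strands, was found in 5.74% of all coding promoters and in 3.85% of those of genes between -1 and 1. Its share was 8.17% (25 of 306) for genes above 1 and 7.97% (18 of 226) for genes below -1, so it was similar in both directions. It was found in 7 of 18 promoters of the cornified envelope list and in 7 of the 13 promoters of its genes below -1. The promoter of SPRR1B, a small proline-rich protein of the envelope, had 2 such sites in the 150 bases before its start, on the plus strand at chr1:153031053-153031202. The promoter of FLG, on the minus strand at chr1:152325240-152325389, had 1 site. Both are shown with the site in capitals. A match of letters is a description of the sequence and no evidence of binding.
SPRR1B: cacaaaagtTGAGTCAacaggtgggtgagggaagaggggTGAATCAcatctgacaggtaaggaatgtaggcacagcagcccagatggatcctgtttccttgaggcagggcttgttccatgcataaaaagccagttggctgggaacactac
FLG: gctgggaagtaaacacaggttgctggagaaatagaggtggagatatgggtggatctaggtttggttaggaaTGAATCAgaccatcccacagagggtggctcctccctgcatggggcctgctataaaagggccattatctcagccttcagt

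The shares of 4.05% above 1 and 2.9% below -1 serve as the background for each gene list below. Library totals in place of TMM lower every ratio by 0.35, which leaves 106 genes above 1 and 709 below -1, and upper-quartile factors give 278 and 348. The split of genes beyond 1 therefore rests on the scaling, and the counts and the median of a list with library totals are given beside the TMM values as "totals". Over all 9662 genes the median was 0.16 (totals -0.19), with quartiles of -0.19 and 0.49. A ratio above 0 was found for 6091 of them, or 63.0% (totals 3369), the background for counts above 0. For 232 genes the whole interval exceeded 1, and for 197 it was under -1 throughout. From centre to edge the interval measured 0.13 in the median gene. Beyond 2 there were 22 genes above and 49 below, and beyond 3 there were 3 above and 13 below. Of the 13 genes below -3, 11 were under 10 CPM in both the knockout and the active-labelled library and so passed the filter through the wild library. Genes above 1 took 4.73% of the counts of the wild library, 8.98% of those of the knockout library and 6.74% of those of the active-labelled library. Genes below -1 took 2.14%, 0.589% and 1.02% in the same order.

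**Figure D1:**
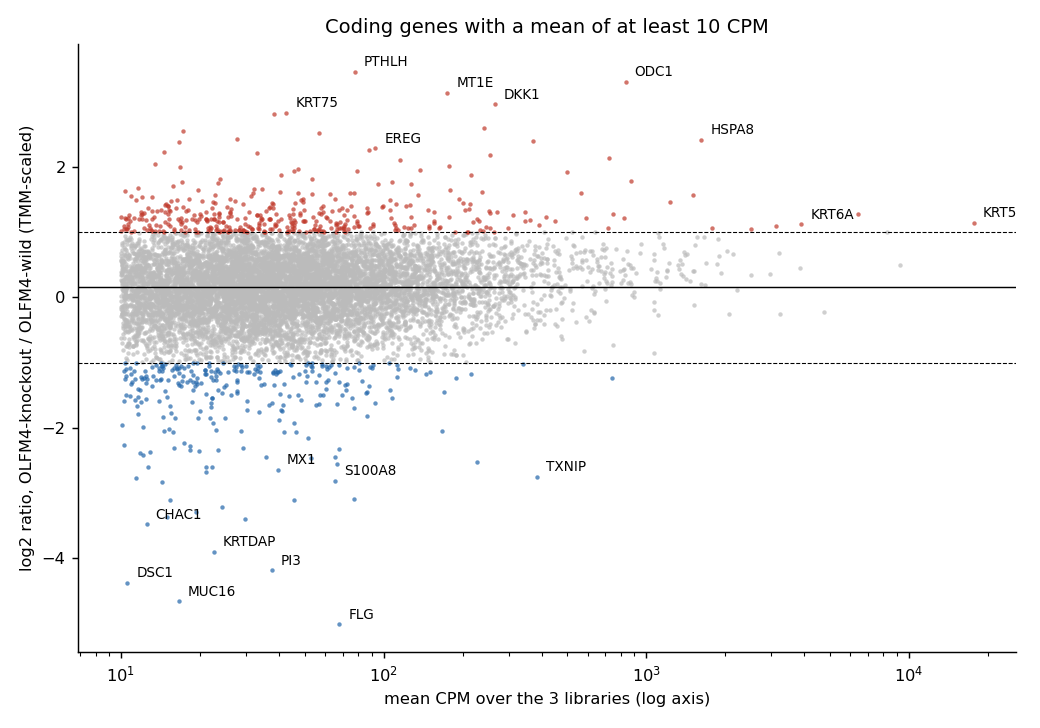
Log2 ratio of the OLFM4-knockout to the OLFM4-wild library (vertical axis) against the mean CPM over the 3 libraries (horizontal log axis), 1 point per coding gene, with genes above 1 in red, genes below -1 in blue and dashed lines at 1 and -1; the solid line is the median of 0.16. The points reach 3.46 (PTHLH) on the upper side and -5.01 (FLG) on the lower side. Genes of the Y chromosome are not drawn.

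The filter on the mean let in genes through a single library. Of the genes above 1, 71 had under 10 CPM in the wild library, and 8 of them also in the library labelled OLFM4-active. Of the genes below -1, 86 had under 10 CPM in the knockout library, and 51 of them also in the library labelled OLFM4-active. At the threshold itself, LRP8 and ADRM1 lay just above 1, the unnamed gene ENSG00000273734 and ARMC6 just below it, RNF217 and ATXN2L just below -1 and SH3KBP1 and UAP1L1 just inside it, and the interval of each of these 8 genes spanned the threshold. Median levels of the 391 genes above 1 were 22.5, 54.0 and 37.8 CPM in the wild, knockout and active-labelled libraries, and those of the 280 genes below -1 were 41.4, 14.9 and 18.7 CPM.

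The 15 highest ratios were led by secreted and surface proteins and enzymes. PTHLH, which encodes parathyroid hormone-related protein, had 10.9, 120.2 and 102 CPM, a log2 ratio of 3.46 (3.26 to 3.67) and an 11-fold higher level in the knockout library. ODC1, the rate-limiting enzyme of polyamine synthesis, had 144, 1425 and 938 CPM, a log2 ratio of 3.31 (3.25 to 3.36). MT1E, a metallothionein that binds zinc and copper, had 28.8, 253 and 243 CPM, a log2 ratio of 3.13 (3.01 to 3.26). For all of these the library labelled OLFM4-active was nearer to the knockout than to the wild library. DKK1, a secreted WNT antagonist, had 47.99, 374 and 374 CPM (2.96, 2.86 to 3.06), and FST, which traps activin, had 42.5, 258 and 420.0 CPM (2.60, 2.50 to 2.71). KRT75, a type II keratin of the hair follicle companion layer, was highest in the knockout library and lowest in the active-labelled one, with 15.2, 109 and 3.93 CPM (2.83, 2.66 to 3.01).

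AJAP1, a membrane protein of adherens junctions, had 7.04, 49.5 and 58.5 CPM, and RAPGEF3, the cAMP-activated exchange factor EPAC1, had 4.68, 27.4 and 19.5 CPM. Their log2 ratios were 2.81 (2.56 to 3.08) and 2.54 (2.24 to 2.89). MSLN, the surface protein mesothelin, had 19.9, 114 and 35.9 CPM (2.52, 2.37 to 2.68), and KLK10, a kallikrein-related peptidase, had 9.58, 51.8 and 21.4 CPM (2.43, 2.21 to 2.66). For these 2 genes the library labelled OLFM4-active lay closer to the wild library on the CPM scale. HSPA8, the constitutive cytosolic HSP70, was the most abundant of the group, with 465, 2483 and 1912 CPM (2.42, 2.38 to 2.45). F3, the tissue factor that starts blood coagulation, had 85.9, 450.4 and 578 CPM (2.39, 2.32 to 2.47). The kinase gene SIK1 had 4.46, 23.2 and 22.2 CPM (2.37, 2.06 to 2.73), the EGF receptor ligand gene EREG had 22.2, 108 and 149 CPM (2.28, 2.14 to 2.43) and the carboxypeptidase gene CPA4 had 24.8, 118 and 120.2 CPM (2.25, 2.12 to 2.39). All 15 genes stayed above 1 with library totals, from 1.90 to 3.11.

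The 15 lowest ratios were led by products of the outermost epidermal layers. FLG, filaggrin, which bundles keratin in cornifying cells, had 191, 5.92 and 6.49 CPM, a log2 ratio of -5.01 (-5.19 to -4.84) and a 32.2-fold lower level in the knockout library. MUC16, a membrane mucin, had 44.5, 1.75 and 3.52 CPM (-4.66, -4.995 to -4.35), and DSC1, the desmocollin of the upper epidermis, had 28.5, 1.36 and 1.84 CPM (-4.37, -4.76 to -4.02). PI3, the elastase inhibitor elafin, had 98.7, 5.44 and 8.62 CPM (-4.18, -4.37 to -4.00). In each of these the knockout and the active-labelled library were both under 10 CPM, so the genes passed the filter through the wild library. KRTDAP, a keratinocyte differentiation-associated secreted protein, had 61.3, 4.11 and 2.43 CPM (-3.89, -4.12 to -3.68), SBSN, suprabasin, had 35.8, 3.49 and 5.48 CPM (-3.36, -3.61 to -3.12), and CASP14, the caspase that acts in filaggrin breakdown, had 189, 22.2 and 21.3 CPM (-3.09, -3.19 to -2.99). S100A8, a subunit of calprotectin, had 155, 22.1 and 18.5 CPM (-2.81, -2.91 to -2.71).

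The other genes among the 15 lowest were of mixed function. CHAC1, which degrades glutathione and is induced by ATF4, had 32.7, 2.94 and 1.93 CPM (-3.47, -3.74 to -3.21). BIRC3, an inhibitor of apoptosis induced by NF-kB, had 75.1, 7.15 and 7.12 CPM (-3.39, -3.56 to -3.23), and OAS2, an interferon-induced oligoadenylate synthetase, had 38.4, 4.46 and 3.39 CPM (-3.10, -3.33 to -2.89). STEAP4, a metalloreductase, had 50.1, 5.14 and 2.85 CPM (-3.28, -3.49 to -3.08), and SVEP1, a large extracellular protein, had 61.9, 6.66 and 4.31 CPM (-3.21, -3.40 to -3.04). LIMCH1, an activator of non-muscle myosin, had 108, 12.6 and 16.03 CPM (-3.10, -3.23 to -2.97), and the membrane protein gene TMEM45A had 34.1, 4.79 and 3.93 CPM (-2.83, -3.05 to -2.62). In each of the 15 the active-labelled library was much nearer to the knockout than to the wild library, a description in which both differences share the wild library.

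**Figure D2:**
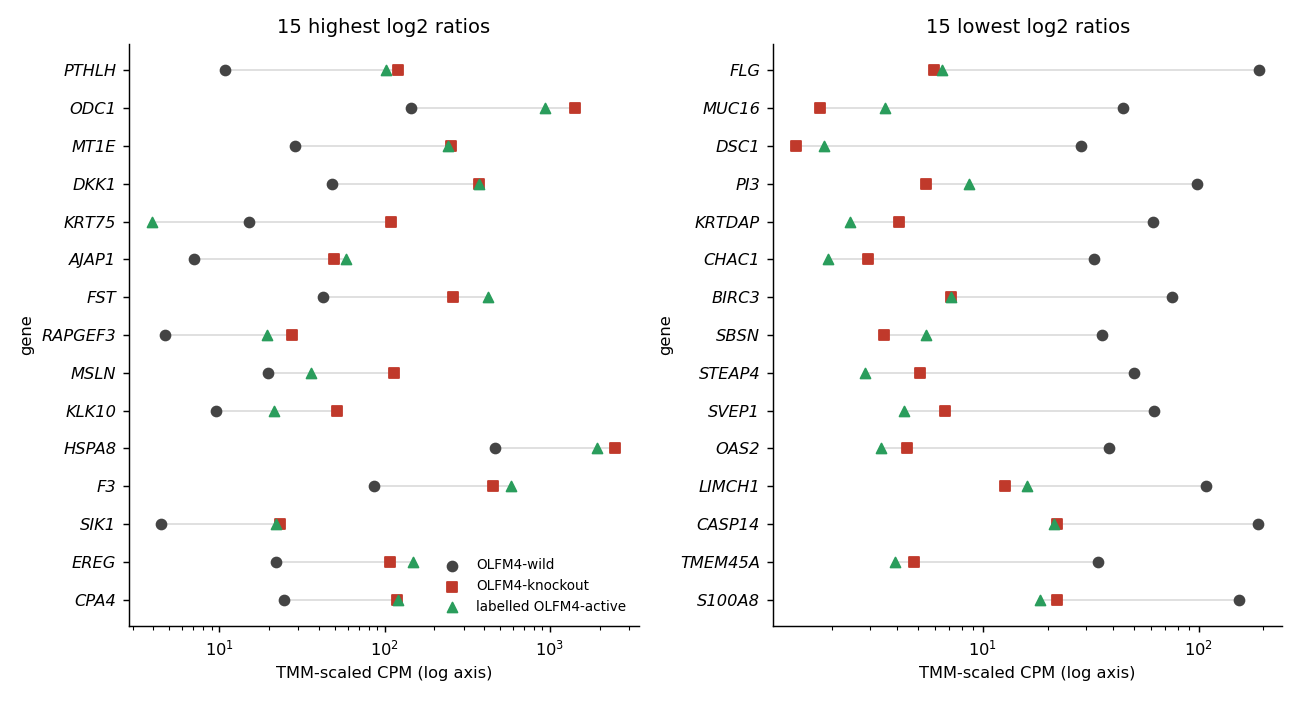
TMM-scaled CPM (horizontal log axes) of the 15 coding genes with the highest (left) and the lowest (right) log2 ratio, with 1 marker per library: circles for OLFM4-wild, squares for OLFM4-knockout and triangles for the library labelled OLFM4-active. FLG had 191 CPM in the wild library and 5.92 and 6.49 CPM in the other two, while KRT75 is the 1 gene on the left whose triangle lies below its circle.

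Gene lists were written for 57 processes and hold 1598 of the 9662 genes. They cover 125 of the 391 genes above 1 and 108 of the 280 below -1. A list is described by how many of its genes lay beyond 1 in each direction, against the background of 4.05% and 2.9%, and by its median, against 0.16. The lists were not tested. RRP9, MRTO4, IFIT1, IFI6, OAS3, KRT6A, KRT6B, KRT6C, MFSD11 and EIF3CL are named for a printed promoter or a shared sequence and not for the size of their ratio.

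Keratins of the basal and the activated epidermis stood at the top of the lists. Of 10 genes there were 7 above 1 and 0 below -1 (totals 2 and 1), median 1.10 (totals 0.74). KRT5 and KRT14, the keratin pair of basal cells, had 12232, 27077 and 13686 CPM (1.15, 1.14 to 1.15) and 4006, 9666 and 5542 CPM (1.27, 1.26 to 1.28). KRT15, a basal keratin, had 127, 359 and 97.2 CPM (1.504, 1.44 to 1.57). KRT15 was thus, like KRT75, lower in the active-labelled than in the wild library. The summed basal markers above moved with these genes, since KRT5 and KRT14 make up most of that sum, whereas TP63, the transcription factor of basal cells, was at 414, 472 and 449.9 CPM. KRT6A, a keratin of activated epidermis, had 2756, 5994 and 2960.1 CPM (1.12, 1.11 to 1.13), KRT6C had 226, 475 and 189.6 CPM (1.07, 1.02 to 1.12) and KRT6B had 179, 158 and 49.3 CPM (-0.18, -0.24 to -0.12). The KRT6 genes are near-identical copies, so how their reads were divided is uncertain. Of 4 simple epithelial keratins there were 0 above 1 and 0 below -1 (totals 0 and 0), median 0.20 (totals -0.15), with KRT8 at 282, 231 and 146 CPM and KRT19 at 353, 471 and 271 CPM.

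Genes that fasten basal cells to each other and to the matrix differed less. The hemidesmosome and basal adhesion list (23 genes) had 1 above 1 and 0 below -1 (totals 0 and 0), median 0.33 (totals -0.023). PLEC, the plectin linker of keratin to hemidesmosomes, had 1699.5, 3637 and 4019 CPM (1.10, 1.08 to 1.12). ITGA6, the integrin subunit of hemidesmosomes, had 1168, 2211 and 1613 CPM (0.92, 0.90 to 0.94). The desmosome list (13 genes) had 1 above 1 and 1 below -1 (totals 0 and 2), median 0.025 (totals -0.33), and besides DSC1 its outermost gene was PKP2, plakophilin 2, at 42.6, 90.7 and 105 CPM (1.09, 0.98 to 1.20). The tight and adherens junction list (23 genes) had 1 above 1 and 2 below -1 (totals 0 and 3), median 0.079 (totals -0.27). CLDN1, the main claudin of epidermal tight junctions, had 135, 23.2 and 40.2 CPM (-2.54, -2.65 to -2.44), and NECTIN4 had 38.6, 16.6 and 10.97 CPM (-1.22, -1.36 to -1.07).

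Genes of the cornified envelope and of epidermal differentiation had the lowest median of the lists drawn, with 4 above 1 and 14 below -1 (totals 1 and 16), median -1.29 (totals -1.65) among 24 genes. The lowest of them, FLG, DSC1, KRTDAP and SBSN, are described above. The list did not move as a whole, since its ratios ran from -5.01 to 1.92. Of the 24 genes, 16.7% lay above 1 and 58.3% below -1, and 7 had a ratio above 0 (totals 4). The list had 49 genes in the table, and 6 of the 14 below -1 were under 10 CPM in both the knockout and the active-labelled library, so they passed the filter through the wild library. Exon length here is the number of bases covered by the exons of all annotated transcripts of a gene, not the length of 1 transcript. The median exon length of the list was 3068 bases, and in the quintile of genes of that length 1.65% lay below -1 and 9.72% above 1. Barrier lipid genes (9) had 0 above 1 and 0 below -1 (totals 0 and 0), median 0.053 (totals -0.30), from 22 genes in the table. The epidermal fatty acid elongase ELOVL4 had 14.9, 9.76 and 8.83 CPM (-0.61, -0.83 to -0.39).

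Inhibitors of proteases were among the lowest genes next to those of the cornified envelope. The list of kallikreins and serine protease inhibitors (17 genes) had 3 above 1 and 4 below -1 (totals 1 and 4), median 0.43 (totals 0.080). SPINK5, the inhibitor LEKTI, had 117, 21.3 and 20.4 CPM (-2.46, -2.57 to -2.35), and SLPI, an inhibitor of leukocyte elastase, had 146, 26.9 and 23.2 CPM (-2.44, -2.53 to -2.34). Both lay on the lower side with PI3, while the peptidase gene KLK10 was above 1. The matrix protease list (17 genes) had 1 above 1 and 2 below -1 (totals 0 and 2), median -0.0098 (totals -0.36). Its members below -1 were SERPINE2 at 48.3, 20.6 and 31.5 CPM (-1.23, -1.36 to -1.10) and the membrane serine protease PRSS8 at 36.05, 16.9 and 16.6 CPM (-1.09, -1.24 to -0.94).

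S100 and annexin genes (17) were divided, with 4 above 1 and 2 below -1 (totals 1 and 2), median 0.38 (totals 0.030). Their median exon length was 2216 bases, in the shortest quintile of genes, where 9.72% lay above 1 and the median was 0.42. The calprotectin subunit gene S100A9 had 363, 88.1 and 50.9 CPM (-2.04, -2.10 to -1.99), lower in the knockout library like its partner S100A8. S100A2, a p63-regulated gene of basal cells, had 294, 1288 and 594 CPM (2.13, 2.09 to 2.17), and S100A16 had 163, 406 and 245 CPM (1.32, 1.26 to 1.37). The LY6 and uPAR domain list (5 genes) had 2 above 1 and 0 below -1 (totals 1 and 0), median 0.44 (totals 0.090). Its median exon length of 2638 bases lies in the same quintile. LY6D, a GPI-anchored surface protein, had 112, 508 and 144 CPM (2.18, 2.11 to 2.24). Mucosal surface genes (4) had 0 above 1 and 1 below -1 (totals 0 and 2), median -0.36 (totals -0.72), and MUC1 was at 29.2, 15.96 and 16.2 CPM (-0.87, -1.03 to -0.71).

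Among growth factors and their receptors, several ligands were higher in the knockout library. The EGF ligand and ERBB receptor list (11 genes) had 3 above 1 and 0 below -1 (totals 1 and 0), median 0.32 (totals -0.037), so the direction of its median turned with library totals. Its 3 genes above 1 were ligands, EREG, EPGN at 40.1, 81.6 and 47.9 CPM (1.03, 0.91 to 1.14) and TGFA at 43.6, 87.8 and 81.7 CPM (1.01, 0.90 to 1.12), and the ligand gene AREG had 93.8, 154 and 239.7 CPM (0.72, 0.64 to 0.80). ERK feedback genes (12) had 2 above 1 and 0 below -1 (totals 1 and 1), median 0.67 (totals 0.32). DUSP2, a nuclear phosphatase of ERK, had 12.2, 33.4 and 22.9 CPM (1.45, 1.25 to 1.66), and EPHA2, an ephrin receptor induced by ERK signaling, had 132, 294 and 234 CPM (1.16, 1.10 to 1.22). AP-1 and immediate early genes (20) had 2 above 1 and 2 below -1 (totals 2 and 3), median 0.23 (totals -0.12). The AP-1 subunits went apart, with FOSL1 at 11.7, 45.5 and 84.6 CPM (1.96, 1.76 to 2.17), FOS at 279.9, 847 and 570.5 CPM (1.60, 1.56 to 1.64) and FOSL2 at 286, 122 and 156 CPM (-1.23, -1.28 to -1.18).

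The WNT pathway list (26 genes) had 2 above 1 and 2 below -1 (totals 2 and 4), median 0.025 (totals -0.33). The secreted members DKK1 and WNT10A, a WNT ligand at 27.1, 77.3 and 43.4 CPM (1.51, 1.38 to 1.65), were above 1. The transcription factors TCF7L1 and TCF7L2, which act with beta-catenin on WNT targets, had 16.8, 4.36 and 9.12 CPM (-1.95, -2.20 to -1.69) and 39.1, 10.9 and 24.4 CPM (-1.85, -2.01 to -1.68). TCF7L1 was under 10 CPM in both the knockout and the active-labelled library, so it passed the filter through the wild library. The Notch list (20 genes) had 1 above 1 and 1 below -1 (totals 0 and 3), median -0.039 (totals -0.39), with the coactivator MAML2 at 24.8, 10.2 and 16.4 CPM (-1.28, -1.47 to -1.10) and the Notch target HES5 at 13.04, 30.9 and 16.7 CPM (1.24, 1.04 to 1.45). The TGF-beta and BMP list (27 genes) had 3 above 1 and 1 below -1 (totals 2 and 2), median -0.24 (totals -0.59). BMP7, a BMP ligand, had 16.3, 51.4 and 35.6 CPM (1.66, 1.48 to 1.84), while the inhibitors of differentiation ID1 and ID2, both BMP targets, had 262, 595 and 225 CPM (1.18, 1.14 to 1.23) and 44.03, 15.2 and 7.32 CPM (-1.54, -1.68 to -1.39).

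Hormone-like peptides and growth factors (17) had 4 above 1 and 4 below -1 (totals 2 and 6), median 0.013 (totals -0.34). Besides PTHLH, ADM, the vasodilator adrenomedullin, had 23.7, 83.8 and 52.8 CPM (1.82, 1.68 to 1.97). On the lower side STC2, stanniocalcin 2, had 83.5, 22.1 and 31.6 CPM (-1.92, -2.03 to -1.81) and IGFBP3, which binds insulin-like growth factors, had 185, 52.5 and 23.2 CPM (-1.81, -1.89 to -1.74). The retinoid response list (10 genes) had 3 above 1 and 0 below -1 (totals 2 and 0), median 0.57 (totals 0.21). ALDH1A3, which makes retinoic acid, had 32.4, 139 and 175 CPM (2.11, 1.99 to 2.23), and CYP26B1, which breaks it down, had 5.12, 21.1 and 14.3 CPM (2.04, 1.74 to 2.37), so enzymes of both synthesis and clearance were higher. The list of YAP and TEAD targets (19 genes) had 2 above 1 and 0 below -1 (totals 1 and 0), median -0.064 (totals -0.42). Apart from F3 and FJX1 at 18.7, 44.7 and 35.5 CPM (1.26, 1.09 to 1.43) its genes lay within 1, and CCN2, a canonical YAP target, was at 30.9, 19.8 and 38.8 CPM (-0.64, -0.79 to -0.49).

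Interferon response genes were lower as a group. Of 45 genes there were 0 above 1 and 17 below -1 (totals 0 and 24), median -0.85 (totals -1.21), and 2 of the 45 had a ratio above 0 (totals 1). Of the 17 below -1, 5 were under 10 CPM in both the knockout and the active-labelled library and so passed the filter through the wild library. MX1, a GTPase that blocks viruses, had 93.8, 15.1 and 9.92 CPM (-2.64, -2.76 to -2.52). XAF1, a proapoptotic interferon target, had 27.96, 4.62 and 5.52 CPM (-2.60, -2.83 to -2.37), and OAS1 had 28.6, 5.53 and 4.44 CPM (-2.37, -2.58 to -2.16). IFIT1, whose promoter with 2 ISRE cores is shown above, had 64.9, 19.3 and 16.4 CPM (-1.75, -1.87 to -1.63), IFI6 had 38.9, 8.24 and 4.86 CPM (-2.24, -2.41 to -2.06) and OAS3 had 121, 48.3 and 47.3 CPM (-1.33, -1.41 to -1.25). The active-labelled library was as low as the knockout library in most of those named. The summed leukocyte markers, 34.0, 26.2 and 20.97 CPM, were also lower, with CD3E and LYZ at 0, and their part in the result was not tested.

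The MHC class I list (13 genes) had 0 above 1 and 0 below -1 (totals 0 and 2), median 0.10 (totals -0.25). HLA-B had 71.5, 37.99 and 29.8 CPM (-0.91, -1.02 to -0.81), and the immunoproteasome subunit gene PSMB10 had 15.96, 30.9 and 12.3 CPM (0.95, 0.77 to 1.14). HLA genes are paralogs that share reads. NF-kB, cytokine and chemokine genes (20) had 1 above 1 and 4 below -1 (totals 0 and 6), median -0.29 (totals -0.64). Of the 4 below -1, 3 were under 10 CPM in both the knockout and the active-labelled library. These 3 passed the filter through the wild library. The inhibitors of NF-kB signaling TNFAIP3 and NFKBIA, themselves NF-kB targets, had 22.5, 4.31 and 8.54 CPM (-2.38, -2.63 to -2.15) and 132, 52.1 and 30.3 CPM (-1.34, -1.42 to -1.26). TNFSF10, the death ligand TRAIL, had 27.2, 5.12 and 4.10 CPM (-2.41, -2.63 to -2.19).

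Genes associated with quiescence and with FOXO factors were mostly lower, with 1 above 1 and 10 below -1 (totals 1 and 15), median -1.04 (totals -1.39) among 19. Of the 10 below -1, 3 were under 10 CPM in both the knockout and the active-labelled library. These 3 passed the filter through the wild library. TXNIP, which binds thioredoxin and limits glucose uptake, was among the most abundant genes below -1, with 954, 142 and 58.4 CPM (-2.75, -2.79 to -2.71). CDKN2B, the CDK4 and CDK6 inhibitor p15, had 149, 29.9 and 24.6 CPM (-2.32, -2.41 to -2.23), and BCL6, a transcriptional repressor, had 39.6, 8.18 and 7.28 CPM (-2.27, -2.45 to -2.10). CDKN1C, the CDK inhibitor p57, was the exception above 1, with 15.1, 70.3 and 13.5 CPM (2.22, 2.04 to 2.40), with the active-labelled library slightly below the wild one. The list of G1 cyclins and CDK inhibitors (20 genes) had 2 above 1 and 1 below -1 (totals 1 and 2), median 0.26 (totals -0.093), with CCND1, cyclin D1, at 93.8, 197 and 197 CPM (1.07, 0.99 to 1.14) and CDKN1B, p27, at 33.1, 17.8 and 12.3 CPM (-0.89, -1.04 to -0.74).

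Targets of p53 (25) had 1 above 1 and 4 below -1 (totals 0 and 6), median 0.072 (totals -0.28). SESN2, a stress-induced inhibitor of mTORC1, had 36.5, 12 and 7.32 CPM (-1.61, -1.77 to -1.45), the antiproliferative gene BTG2 had 59.4, 23.8 and 21.6 CPM (-1.32, -1.44 to -1.20) and the exonuclease gene AEN had 21.4, 49.4 and 39.05 CPM (1.21, 1.05 to 1.37). The amino acid stress and ATF4 target list (27 genes) had 1 above 1 and 5 below -1 (totals 0 and 6), median -0.045 (totals -0.40). DDIT3, the stress transcription factor CHOP, had 41.2, 11.4 and 13.2 CPM (-1.86, -2.01 to -1.70) and stood on the lower side with CHAC1 and STC2. The endoplasmic reticulum stress list (19 genes) had 1 above 1 and 2 below -1 (totals 0 and 2), median -0.19 (totals -0.54), with HERPUD1, of ER-associated degradation, at 58.1, 26.3 and 29.8 CPM (-1.14, -1.26 to -1.03) and CREB3L2 at 33.5, 12.5 and 24.1 CPM (-1.42, -1.58 to -1.26). Circadian genes (12) had 0 above 1 and 4 below -1 (totals 0 and 6), median -0.64 (totals -0.997). PER1, a repressor of the clock, had 118, 42.8 and 96.6 CPM (-1.46, -1.55 to -1.37), NR1D2 had 31.3, 10.8 and 24.7 CPM (-1.54, -1.71 to -1.37) and BHLHE40 had 36.98, 12.1 and 17.2 CPM (-1.61, -1.77 to -1.45). The time of day of harvest is not given in the sources used here.

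Factors that assemble ribosomes were among the lists with most genes above 1. The ribosome biogenesis list had 22 above 1 and 0 below -1 (totals 5 and 0), median 0.76 (totals 0.40) among 71 genes, or 31.0% above 1 against the background of 4.05%. Of the 71, 70 had a ratio above 0 (totals 63), against 63.0% of all genes. Among the small-subunit and nucleolar assembly factors, RRP12 had 33.3, 101 and 89.7 CPM (1.59, 1.47 to 1.72), WDR3 had 30.8, 87.8 and 77.1 CPM (1.51, 1.39 to 1.64), RRP1 had 19.8, 51.6 and 39.3 CPM (1.38, 1.22 to 1.54) and NOL6 had 48.3, 125 and 86.3 CPM (1.37, 1.27 to 1.48). The median exon length of the list was 4710 bases, and in the quintile of genes of that length 4.66% lay above 1. RRP9 and MRTO4, whose E-boxes are shown above, had 10.6, 27.1 and 16.5 CPM (1.35, 1.13 to 1.57) and 34.3, 86.3 and 70.2 CPM (1.33, 1.21 to 1.46).

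The ribosome's own proteins and the machinery of translation had smaller medians. Cytosolic ribosomal proteins (79) had 0 above 1 and 0 below -1 (totals 0 and 1), median 0.46 (totals 0.11), and 75 of them had a ratio above 0 (totals 57). Their median exon length was 3228 bases, and genes of that quintile had a median of 0.29. RPL35A lay nearest to the threshold with 362, 724 and 482 CPM (0.999, 0.96 to 1.04), and RPS16 stood apart with 173, 87.3 and 189.8 CPM (-0.99, -1.05 to -0.92). Translation factors (46) had 2 above 1 and 1 below -1 (totals 0 and 3), median 0.41 (totals 0.059). EIF4A1, the helicase of cap-dependent initiation, had 447, 935 and 774 CPM (1.06, 1.03 to 1.10), and EIF6, which acts on the large subunit, had 143, 286 and 197 CPM (1.002, 0.94 to 1.06). EIF3C had 35.3, 15.6 and 12.5 CPM (-1.18, -1.33 to -1.02) and its near-identical copy EIF3CL 10.2, 30.8 and 54.2 CPM (1.59, 1.38 to 1.82). Summed, the 2 copies had 45.5, 46.4 and 66.7 CPM and a log2 ratio of 0.029 (-0.085 to 0.15), so the difference of each copy was not seen in their sum. Aminoacyl-tRNA synthetases (20) had 0 above 1 and 0 below -1 (totals 0 and 0), median 0.31 (totals -0.040), with RARS1 at 126, 233 and 182 CPM (0.89, 0.82 to 0.95).

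Nuclear-encoded mitochondrial genes also had medians above that of all genes. Mitochondrial ribosomal proteins (76) had 5 above 1 and 0 below -1 (totals 0 and 0), median 0.65 (totals 0.29), and the respiratory chain (72) had 6 above 1 and 0 below -1 (totals 1 and 0), median 0.72 (totals 0.37). MRPS12, of the small mitochondrial subunit, had 19.1, 47.5 and 25.7 CPM (1.31, 1.15 to 1.48), and ATP5MC3, a c-ring subunit of ATP synthase, had 59.1, 157 and 82.1 CPM (1.41, 1.32 to 1.501). Both lists consist of short genes, with median exon lengths of 2544 and 2545 bases, and in the shortest quintile of genes 9.72% lay above 1 and the median was 0.42. The shares above 1 in these lists, 6.58% and 8.33%, were below that of the shortest quintile. Mitochondrial import and TCA cycle genes (37) had 5 above 1 and 0 below -1 (totals 1 and 0), median 0.50 (totals 0.15). TOMM40, the channel of the outer membrane, had 56.4, 147 and 92.3 CPM (1.38, 1.29 to 1.48), and TIMM17A, of the inner membrane, had 40.6, 103 and 74.04 CPM (1.35, 1.24 to 1.46).

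Protein quality control differed by branch. Cytosolic and mitochondrial chaperones (28) had 6 above 1 and 0 below -1 (totals 1 and 0), median 0.65 (totals 0.30). HSPH1, an HSP110 nucleotide exchange factor, had 98.6, 248.9 and 265 CPM (1.34, 1.26 to 1.41), and the small heat shock gene HSPB1 had 557, 1288 and 615 CPM (1.21, 1.18 to 1.24). HSPA1B had 36.8, 89.96 and 44.1 CPM (1.29, 1.17 to 1.41), with a near-identical neighbor in HSPA1A. Proteasome genes (31) had 2 above 1 and 0 below -1 (totals 0 and 0), median 0.64 (totals 0.28), all 31 above 0 (totals 26), with PSMA7 at 143, 329 and 209.5 CPM (1.20, 1.14 to 1.26). NRF2 and antioxidant genes (24) had 2 above 1 and 0 below -1 (totals 1 and 0), median 0.61 (totals 0.26), a share above 1 under the 9.72% of the shortest quintile, where their median exon length of 3152 bases lies. PRDX1, a peroxiredoxin, had 117, 318 and 169 CPM (1.45, 1.38 to 1.51), and NQO1, a quinone reductase and canonical NRF2 target, had 79.8, 202 and 162 CPM (1.34, 1.26 to 1.42). Lysosome and autophagy genes (30) had 0 above 1 and 1 below -1 (totals 0 and 2), median 0.076 (totals -0.28), with the autophagosome protein gene MAP1LC3B at 52.2, 25.2 and 81.03 CPM (-1.05, -1.17 to -0.93).

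Metallothioneins and metal transporters (13) had 5 above 1 and 1 below -1 (totals 5 and 1), median 0.35 (totals 0.00044). MT2A and MT1X, whose promoters are shown above, had 76.8, 282 and 288 CPM (1.87, 1.80 to 1.96) and 16.8, 61.6 and 43.1 CPM (1.87, 1.70 to 2.05), and SLC30A1, the zinc exporter that is also induced by zinc, had 42.4, 141 and 197 CPM (1.73, 1.63 to 1.84). The MT1 genes are paralogs of similar sequence. The polyamine, nucleotide and one-carbon list (37 genes) had 3 above 1 and 0 below -1 (totals 1 and 0), median 0.46 (totals 0.11). Next to ODC1 stood MAT2A, which makes S-adenosylmethionine, with 119.7, 288 and 524 CPM (1.27, 1.20 to 1.33), and AMD1, the other decarboxylase of polyamine synthesis, with 115, 214 and 198 CPM (0.90, 0.83 to 0.97). Glycolysis and hypoxia genes (32) had 3 above 1 and 0 below -1 (totals 1 and 4), median 0.27 (totals -0.086), with LDHB at 219.7, 494 and 325 CPM (1.17, 1.12 to 1.22) and the lactate exporter SLC16A3 at 50.2, 105 and 56.4 CPM (1.07, 0.97 to 1.17). Cholesterol and fatty acid genes (35) had 0 above 1 and 1 below -1 (totals 0 and 3), median 0.091 (totals -0.26), with the desaturase FADS2 at 102, 44.8 and 23.98 CPM (-1.19, -1.28 to -1.10).

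Replication and mitosis lists had medians on opposite sides of that of all genes. DNA replication and S phase genes (50) had 1 above 1 and 0 below -1 (totals 0 and 0), median 0.30 (totals -0.055), and 43 had a ratio above 0 (totals 23). MCM2, a subunit of the replicative helicase, had 170.3, 359.6 and 204 CPM (1.08, 1.02 to 1.13). Mitosis and G2/M genes (68) had 0 above 1 and 6 below -1 (totals 0 and 19), median -0.40 (totals -0.75), and 10 had a ratio above 0 (totals 2). MKI67, the proliferation antigen Ki-67, had 943, 402 and 874 CPM (-1.23, -1.26 to -1.20), and CKAP2L, of the spindle, had 83.7, 29.6 and 59.2 CPM (-1.499, -1.60 to -1.40). HJURP, the chaperone of centromeric histone, had 61.5, 27.5 and 24.5 CPM (-1.16, -1.28 to -1.05). The S phase median changed sign with library totals, and the mitosis median was below 0 with both scalings. Replication-dependent histones (49), most of whose transcripts lack a poly(A) tail, had 0 above 1 and 1 below -1 (totals 0 and 1), median -0.069 (totals -0.42). DNA repair genes (37) had 0 above 1 and 1 below -1 (totals 0 and 2), median -0.026 (totals -0.38), with MDC1, a scaffold at DNA breaks, at 76.8, 37.6 and 74.3 CPM (-1.03, -1.13 to -0.93).

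Chromatin modifiers (59) had 0 above 1 and 7 below -1 (totals 0 and 15), median -0.39 (totals -0.74). The acetyltransferase gene EP300 had 89.2, 28.9 and 52.3 CPM (-1.63, -1.73 to -1.52). BRD3, a reader of acetylated histones, had 70.7, 30.5 and 51.6 CPM (-1.21, -1.32 to -1.10), and KAT6B, another acetyltransferase gene, had 50.4, 22.9 and 44.4 CPM (-1.14, -1.26 to -1.01). The list had a median exon length of 13884 bases, in the longest quintile of genes, where 5.02% lay below -1 and the median was -0.082. Its own share below -1 was 11.9%. Pre-mRNA splicing genes (51) had 5 above 1 and 0 below -1 (totals 0 and 3), median 0.33 (totals -0.028). SRSF2, a serine- and arginine-rich splicing factor, had 121, 309 and 203 CPM (1.35, 1.28 to 1.41), SRSF7 had 60.6, 154 and 102 CPM (1.34, 1.25 to 1.43) and SNRPE, of the Sm ring, had 32.1, 79.3 and 65.8 CPM (1.30, 1.18 to 1.43). MFSD11, which overlaps SRSF2 on the other strand, had 72.6, 194 and 111 CPM (1.42, 1.34 to 1.502).

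Matrix genes (33) had 4 above 1 and 6 below -1 (totals 2 and 9), median -0.26 (totals -0.62). THBS2, a thrombospondin, had 3.52, 16.7 and 23.7 CPM (2.23, 1.88 to 2.63), and HAS3, a hyaluronan synthase, had 27.02, 104 and 107 CPM (1.94, 1.81 to 2.08). SPARC, a collagen-binding matricellular protein, had 76.2, 20.6 and 23.3 CPM (-1.89, -2.002 to -1.77), and TNC, tenascin C, had 149.8, 48.9 and 79.8 CPM (-1.62, -1.69 to -1.54). The epithelial-mesenchymal transition list (15 genes) had 0 above 1 and 2 below -1 (totals 0 and 3), median -0.073 (totals -0.43), and besides SPARC its gene below -1 was VIM, vimentin, with 351, 155 and 138 CPM (-1.18, -1.23 to -1.13). The summed fibroblast markers, 34.5, 32.0 and 23.4 CPM, differed little between the wild and the knockout library. Actin and contractility genes (45) had 1 above 1 and 1 below -1 (totals 1 and 4), median 0.17 (totals -0.19), with ACTG1, gamma-actin, at 693, 2054 and 1785 CPM (1.57, 1.54 to 1.59) and PALLD, palladin, at 99.4, 49.4 and 94.2 CPM (-1.01, -1.10 to -0.92).

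Lineage transcription factors (20) had 2 above 1 and 2 below -1 (totals 1 and 3), median -0.019 (totals -0.37). The 2 below -1 were under 10 CPM in both the knockout and the active-labelled library and passed the filter through the wild library. The epithelial ETS factors EHF and ELF3 had 52.01, 8.59 and 6.07 CPM (-2.60, -2.76 to -2.43) and 22.9, 9.21 and 5.32 CPM (-1.31, -1.51 to -1.12), while HOXC13, a homeobox factor of hair and nail, had 8.14, 21.2 and 19.1 CPM (1.37, 1.13 to 1.64). The axon guidance list (27 genes) had 1 above 1 and 2 below -1 (totals 0 and 4), median 0.061 (totals -0.29), with the netrin NTN4 at 13.6, 6.02 and 13.2 CPM (-1.18, -1.42 to -0.93) and SEMA4D at 31.97, 14.8 and 16.03 CPM (-1.11, -1.27 to -0.95). Transporters and channels (24) had 1 above 1 and 2 below -1 (totals 0 and 2), median 0.071 (totals -0.28). ABCA1, which exports cholesterol, had 35.9, 10.01 and 12.97 CPM (-1.84, -2.01 to -1.67), and AQP3, the aquaglyceroporin of basal keratinocytes, had 83.7, 196 and 103 CPM (1.23, 1.15 to 1.31). MYC, with 274, 510.3 and 486 CPM, had a ratio of 0.90 (0.85 to 0.94) and so lay within the threshold.

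**Figure D3:**
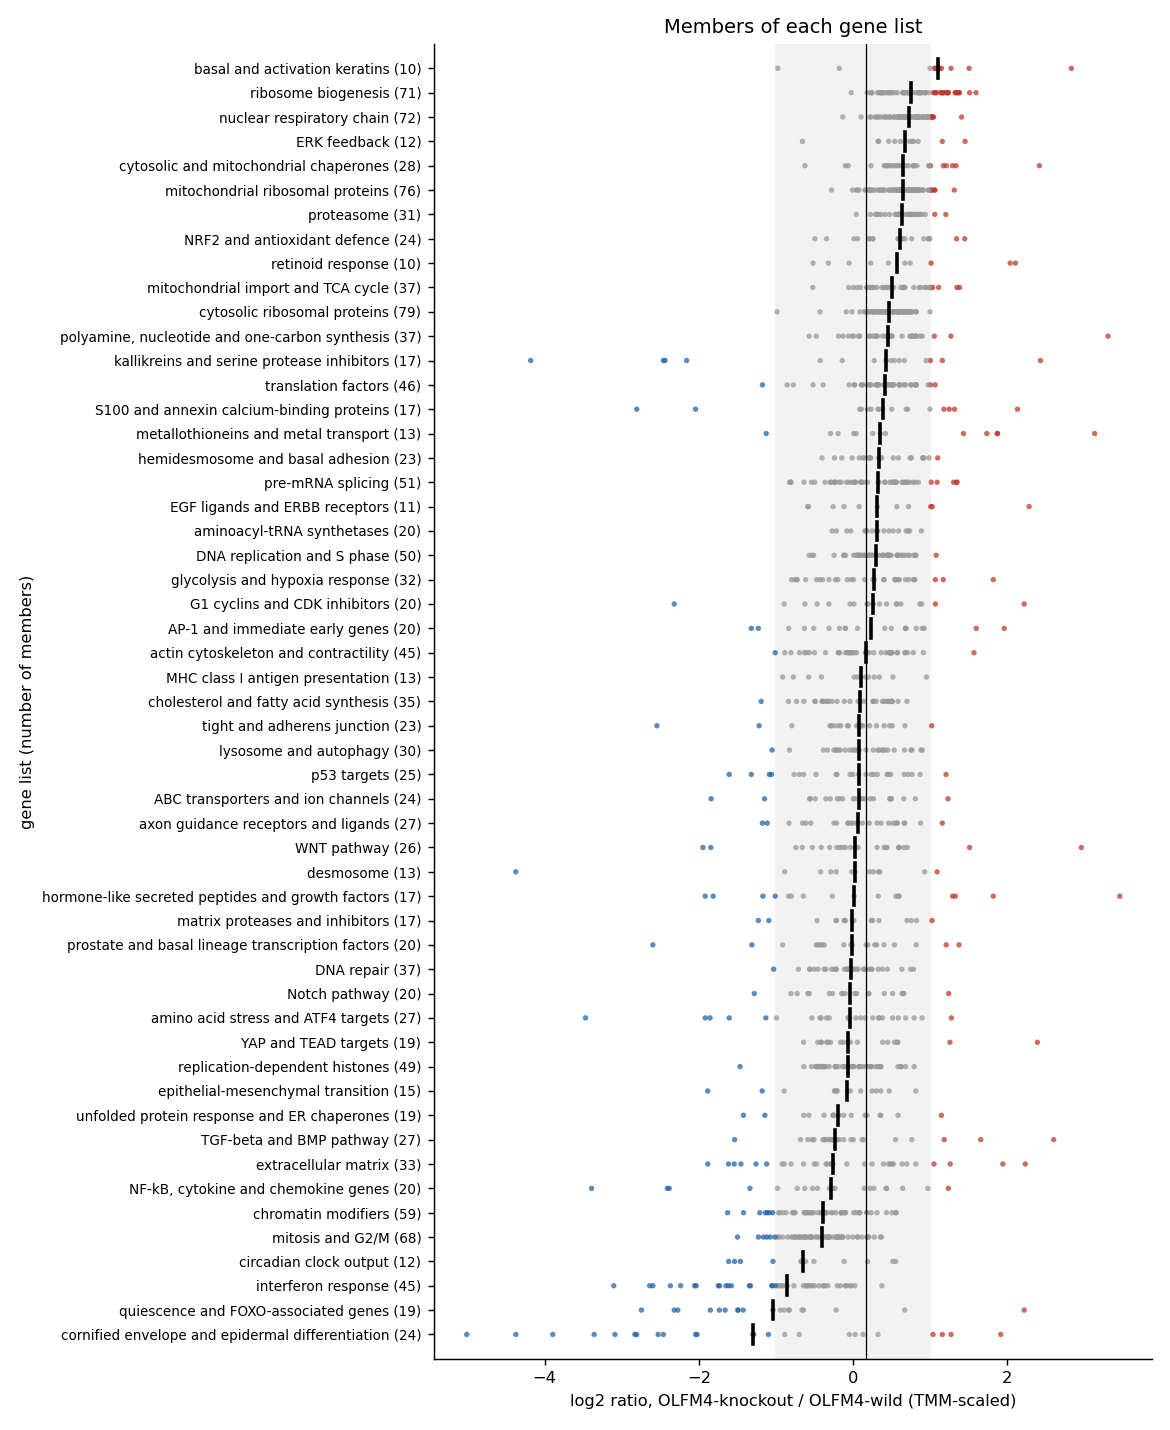
Log2 ratio of the OLFM4-knockout to the OLFM4-wild library for the genes of each of the 53 lists with at least 10 measured genes, ordered by median (black bar), with 1 point per gene, red above 1 and blue below -1; the shaded band runs from -1 to 1 and the vertical line is the median of all genes, 0.16. The cornified envelope list is lowest at -1.29 and the basal and activation keratins highest at 1.10, and with library totals every point moves 0.35 to the left.

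The levels in the 3 libraries fell into different orders by function. Interferon genes and most epidermal differentiation genes named here were high in the wild library and low in both others, and ribosome assembly factors were low in the wild library and higher in both others. In some keratin and some chromatin genes it was the knockout library that stood apart, and the active-labelled library lay near or beyond the wild one. KRT4, a keratin of mucosal epithelium, had 279, 1053 and 167 CPM (1.92, 1.87 to 1.96), and KRT13, its partner, had 255, 628 and 156 CPM (1.30, 1.26 to 1.35). CREBBP, the acetyltransferase CBP, had 160.2, 74.1 and 163 CPM (-1.11, -1.18 to -1.04), POGZ, a heterochromatin-associated zinc finger protein, had 64.5, 29.4 and 66.9 CPM (-1.13, -1.24 to -1.02) and ATN1, a transcriptional corepressor, had 81.4, 26.3 and 91.2 CPM (-1.63, -1.74 to -1.52). These genes were chosen for their pattern after their values were seen, and the orders are descriptions of 3 libraries.

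**Figure D4:**
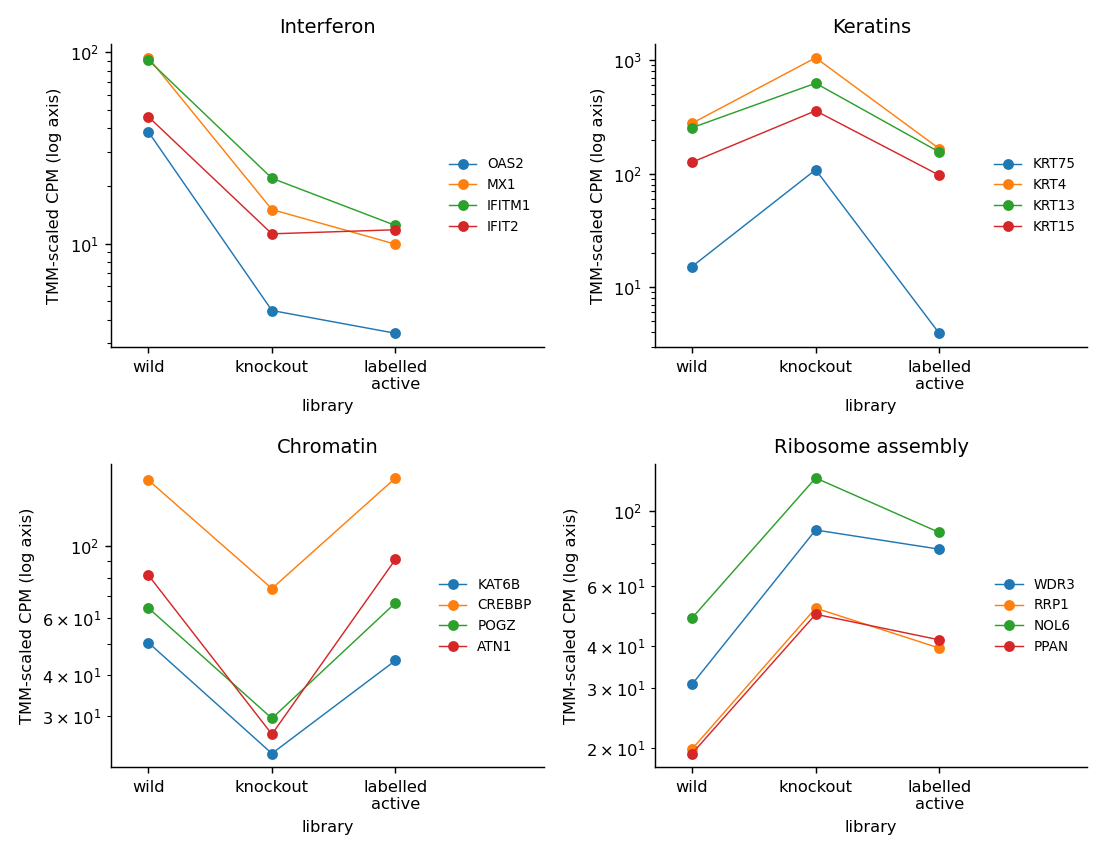
TMM-scaled CPM (vertical log axes) in the OLFM4-wild library, the OLFM4-knockout library and the library labelled OLFM4-active for 4 genes of each of 4 groups, with lines joining the values of a gene. The keratin genes are highest and the chromatin genes lowest in the knockout library, whereas the interferon genes are highest and the ribosome assembly genes lowest in the wild library.

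The genes beyond 1 also differed in length and composition, which the rule did not use. The median exon length was 3306 bases for genes above 1, 5727 bases for those within 1 and 7170 bases for those below -1. It covers the exons of all annotated transcripts of a gene, so it also depends on how many transcripts are annotated. Median GC content of the exons of the longest transcript was 55.4%, 47.1% and 48.0% in the same order. From the shortest to the longest quintile of genes the median log2 ratio went from 0.42 to -0.082, the share above 1 from 9.72% to 1.24% and the share below -1 from 1.65% to 5.02%. From the lowest to the highest quintile by GC content the median went from 0.065 to 0.37. Length and GC moved with the ratios in these libraries, and their part in each group above was not tested.

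**Figure D5:**
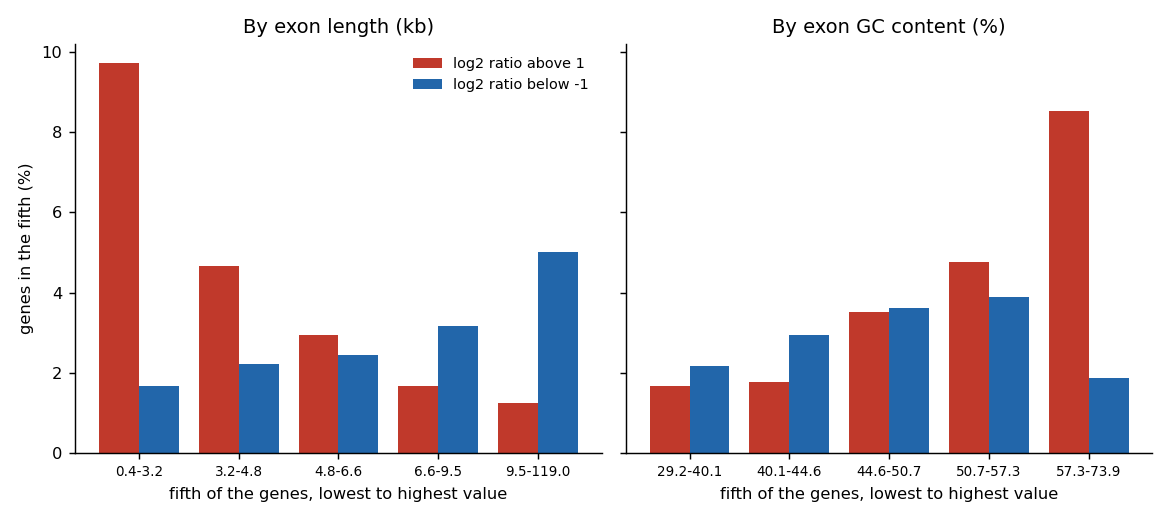
Percentage of genes with a log2 ratio above 1 (red bars) and below -1 (blue bars) in quintiles of the 9662 genes by exon length in kilobases (left) and by GC content of the exons of the longest transcript (right). The red bars fall from 9.72% in the shortest to 1.24% in the longest quintile, and the blue bars rise from 1.65% to 5.02%.

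Some genes beyond 1 were neighbors. Along the chromosomes, with only the 9662 genes counted, there were 10 runs of 3 genes beyond 1 in the same direction and none longer. The lower runs were FLG, SPRR1A and SPRR1B in the epidermal differentiation complex of chromosome 1, IFIT2, IFIT3 and IFIT1 on chromosome 10, OAS1, OAS3 and OAS2 on chromosome 12, and KRTDAP, DMKN and SBSN on chromosome 19. Among the higher runs were KRT6C, KRT6A and KRT5 in the keratin cluster of chromosome 12 and MT2A, MT1E and MT1X in the metallothionein cluster of chromosome 16. Other higher runs held a readthrough annotation and parts of it, which can count the same reads. They were PPAN-P2RY11 with PPAN and P2RY11 on chromosome 19, and TGIF2-RAB5IF with RAB5IF, next to SLA2, on chromosome 20. The median log2 ratio of a chromosome ran from -0.039 on chromosome 15 to 0.29 on chromosome 19, so no chromosome approached the threshold as a whole.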

How the data were processed

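RNA-seq libraries of OLFM4-wild, OLFM4-knockout and OLFM4-active RWPE1 cells, 1 per group, were compared from the gene counts that the authors deposited. Per the labels, reads were trimmed with cutadapt, aligned with HISAT2 and assigned to genes with featureCounts, and the study's methods state uniquely mapped pairs counted on the reverse strand against GENCODE genes on GRCh38. Reads of near-identical genes are lost or divided by such counting. Gene type, exon length and GC content came from GENCODE 44, which matched 56948 of the 58037 gene identifiers (98.2%), and promoters from RefSeq (GRCh38.p14).

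Counts were scaled with TMM factors (edgeR 4.0.16) over the 3 libraries, and the log2 ratio was taken with an offset of 0.5 counts as in voom. The 95% interval is the exact conditional binomial interval of the 2 counts, which covers counting error only. With 1 library per group no test was possible and no p-value is given. The calculation was tested on simulated data (Python 3.11.15, scipy 1.17.1). Named genes are the 15 with the highest and the 15 with the lowest log2 ratio, up to 4 per gene list with the largest absolute ratio, the 2 nearest each side of the thresholds, OLFM4 and MYC, and a few others named for a printed promoter, a near-identical or overlapping copy, or their pattern over the libraries. The coding genes, the 57 gene lists and the comparison itself were chosen with earlier results of these data known. Alternatives were library totals, DESeq2 size factors (DESeq2 1.42.0), upper-quartile factors, other offsets, filters and thresholds, and thinning to equal depth. Results of some named genes are not reported here.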

Additional observations from a re-analysis of the deposited data

How the results depend on the processing

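The main counts were 391 genes above 1 and 280 below -1. With library totals they were 106 and 709. A filter at a mean of 1 CPM gave 887 genes below -1, and no filter gave 1049 above 1 and 2456 below -1, since genes of few counts were then included. With the interval wholly beyond the threshold 232 genes lay above 1, and a threshold of 2 left 22 above and 49 below. Counts under DESeq2 size factors, upper-quartile factors, removal of the 10 genes with most counts, an offset of 5, other 10 CPM filters and thinning to equal depth stayed within 1.5 times the main counts, as did TMM and the filter over the knockout and wild libraries alone, an alternative chosen after seeing the data. Of 239 named genes, 164 lay beyond 1, 115 of them also with library totals and 142 with upper-quartile factors, and none of the 164 changed sign under the scalings, offset and thinning tried. Of 57 list medians, 21 changed sign with library totals and 9 with upper-quartile factors. Leaving out a replicate was not possible. No paired analysis was possible because each group had 1 library. The floor of 3 counts corresponds to a level far under the filter in every library, so depth did not limit which of the genes were detected.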

Other observations

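Gene families were also described. They were chosen by symbol after the values had been seen, and their counts are set beside the background of 4.05% above 1 and 2.9% below -1 without a test. Subunits of RNase P and RNase MRP, which process tRNA and rRNA precursors, had 3 of 11 members above 1 and 0 below -1, median 0.70 (totals 0.35). Their median exon length was 2177 bases, in the shortest quintile of genes, where 9.72% lay above 1 and the median was 0.42. RPP40 was at 5.94, 19.6 and 21.97 CPM (1.71, 1.43 to 2.02) and POP1 at 15.1, 44.5 and 33.9 CPM (1.55, 1.37 to 1.74). The tRNA modification enzymes had 11 of 46 members above 1 and 0 below -1, median 0.51 (totals 0.16), and exosome subunits had 1 of 10 members above 1 and 0 below -1, median 0.54 (totals 0.19).

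On the lower side, ETS transcription factors, which include EHF and ELF3 of the lineage list, had 0 of 14 members above 1 and 4 below -1, median -0.52 (totals -0.87), and ETS2 was at 284, 104 and 121 CPM (-1.45, -1.503 to -1.39). NCOA coactivators had 0 of 7 members above 1 and 2 below -1, median -0.45 (totals -0.81), with NCOA6 at 116, 45.4 and 103 CPM (-1.36, -1.44 to -1.27). Zinc finger genes with a ZNF symbol, the largest family, had 9 of 252 members above 1 and 4 below -1, median 0.029 (totals -0.32).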
